A study of Homo sapiens with 6 samples.

Results

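The nuclear genes of the respiratory chain are described here in Raji cells, a human line of B cells that came from a Burkitt lymphoma. Members were the protein-coding genes whose symbol starts with NDUF, SDHA, SDHB, SDHC, SDHD, UQCR, ATP5, COA followed by a digit, or COX followed by a digit. This rule uses names alone, but it was chosen with earlier results of these data known. It took 118 of the 58735 genes in the table. The tested cells were Raji GFP-ffluc cells, which carry a GFP and luciferase reporter, kept overnight with Bryostatin-1 at 1 nM, a natural lactone that acts on protein kinase C. The control cells were Raji GFP-ffluc cells of the same genotype kept overnight with DMSO. Each treatment has 3 libraries of polyadenylated RNA. The labels name no separate cultures, so the p-values reflect the spread among these libraries alone, which may be technical.

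The respiratory chain lies in the inner mitochondrial membrane. Complex I takes electrons from NADH and complex II takes them from succinate, complex III passes them to cytochrome c, and complex IV hands them to oxygen. The proton gradient that complexes I, III and IV build drives ATP synthase. Catalytic core subunits bind the flavins, hemes, copper and iron-sulfur clusters, many small accessory subunits surround that core, and assembly factors insert cofactors or join subunits without staying in the finished complex. Most of these proteins are made from nuclear genes and imported, and a small set is made inside mitochondria from mitochondrial DNA. Lymphoma cells of the Burkitt type divide fast and use both glycolysis and respiration.

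Levels are given in FPKM, fragment counts scaled by gene length and by library size. Of the 118 members, 11 averaged 100 FPKM or more, 70 lay between 10 and 100 FPKM, 24 between 1 and 10 FPKM, and 13 under 1 FPKM. The most abundant was ATP5F1B, the catalytic beta subunit of ATP synthase, with 525, 558 and 497 FPKM in bryostatin libraries 1 to 3, against 528, 471 and 558 FPKM in DMSO libraries 1 to 3. Next came NDUFS5, an accessory subunit of complex I, with 298, 237 and 235 FPKM in bryostatin cells, against 183, 218 and 213 FPKM in DMSO cells. ATP5F1B overlapped between the treatments, while every bryostatin library lay above every DMSO library for NDUFS5. All members together made up 1.92%, 1.87% and 1.72% of the summed FPKM in bryostatin libraries, against 1.65%, 1.68% and 1.57% in DMSO libraries, and these shares did not overlap. In bulk RNA, fewer cells that express a gene and less of its RNA per cell cannot be told apart.

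The libraries held 19405370 to 21406275 reads on genes with bryostatin and 19883563 to 24468270 with DMSO. All 6 B-cell markers checked were present, with summed levels of 988 to 1370 FPKM in bryostatin libraries and 921 to 1458 FPKM in DMSO libraries. None of the 15 markers of T cells, myeloid cells, epithelium, fibroblasts and striated muscle reached a mean of 1 FPKM, and the summed level of any of these lists was at most 0.534 FPKM with bryostatin and 0.727 FPKM with DMSO.

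Promoter sequence was compared because many respiratory genes are known targets of nuclear respiratory factor 1 (NRF1), of Ets factors such as GABP, and of YY1. RefSeq promoters of build GRCh38.p14, covering 250 bases before and 50 after the gene start, were matched for 97 of the 118 members. Members were matched by symbol, or else by a synonym. Genes averaging 1 FPKM or more, called expressed here, were matched by symbol alone. Each motif was searched on both strands and counted apart from the others, and its letters are part of the longer sites these factors bind. The NRF1 letters GCATGCG stood in 18.6% of members' promoters, against 7.54% of the 7723 promoters of genes expressed here and 4.13% of all 27305 promoters. The Ets letters CCGGAAG stood in 29.9% of members' promoters, against 22.4% of expressed genes and 10.7% of all, and the YY1 letters ATGGCGG in 25.8%, against 12.2% and 5.72%. The median GC content of these promoters was 62% for members and 65.3% for expressed genes. Of the 97 promoters, 88 belong to members that averaged 1 FPKM or more, as the expressed genes did. In these 88 the shares were 20.5% for NRF1, 33% for Ets and 25% for YY1. Promoters of ATP5PF, SDHD, SDHB, SDHAF2 and COX6A1 held all 3 motifs. A match to such letters is a description of the sequence and does not show binding.

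The stretches below are shown because they carry the NRF1 letters, in capitals, before the gene start and overlap no annotated exon in GENCODE release 29. They belong to COX17 (chr3:119677475-119677561, minus strand), COX5B (chr2:97645886-97645972, plus strand), COX6A1 (chr12:120437863-120437940, plus strand), NDUFB4 (chr3:120596138-120596224, plus strand) and SDHB (chr1:17054186-17054272, minus strand), all in GRCh38.p14 and written 5′ to 3′ on the strand of the gene. In COX5B and SDHB the capitals mark GCATGCG. In COX17, COX6A1 and NDUFB4 they mark CGCATGC, its reverse complement, which is followed by g, so that GCATGCG can be read on both strands there.
COX17: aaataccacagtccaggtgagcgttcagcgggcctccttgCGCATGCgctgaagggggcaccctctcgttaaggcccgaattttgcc
COX5B: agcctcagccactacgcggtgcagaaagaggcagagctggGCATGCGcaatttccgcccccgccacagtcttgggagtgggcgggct
COX6A1: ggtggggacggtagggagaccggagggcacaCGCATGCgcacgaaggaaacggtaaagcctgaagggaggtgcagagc
NDUFB4: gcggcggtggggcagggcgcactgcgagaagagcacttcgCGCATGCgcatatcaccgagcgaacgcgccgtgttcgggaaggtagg
SDHB: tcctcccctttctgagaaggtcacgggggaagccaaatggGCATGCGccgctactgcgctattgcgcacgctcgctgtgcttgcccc
Levels of genes with the same letters varied. COX5B averaged 108 FPKM with bryostatin and 88.8 FPKM with DMSO, while SDHB averaged 67.7 ± 0.271 FPKM and 69.9 ± 2.66 FPKM (SD, n = 3 each). Among members at an unadjusted p under 0.05 and higher with bryostatin, 24% of promoters held the NRF1 letters, against 19% of the other tested members. For the Ets letters these shares were 32% and 33.3%, and for YY1 they were 16% and 28.6%.

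The comparison asked which of these transcripts differed between bryostatin and DMSO. Of the 118 members, 105 averaged 1 FPKM or more and were tested, and each of them reached 1 FPKM in the mean of both treatments. Differences are bryostatin minus DMSO in the mean of log2(FPKM + 1), a scale that understates changes of weakly expressed genes, with p-values from limma's moderated test over all 11071 genes that reached that level and Benjamini-Hochberg adjustment over them. No member passed an adjusted p of 0.05, and neither did any other gene (background 0%), the smallest adjusted p being 0.216 among members and 0.121 among all genes. At an unadjusted p under 0.05, 30 members (28.6%) were higher with bryostatin, where the share among all genes tested was 10.5%. In the other direction 2 members (1.90%) were lower, against 7.18% of all genes. With voom precision weights the same counts were 31 and 2, against 10.4% higher and 9.29% lower of all genes in that fit. After adjustment 0 members passed, and 0 of all genes.

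The members leaned the same way without any threshold. The log2 difference was above 0 for 85 of 105 members (81%), against 53.9% of all genes, with a median of 0.16 for members and 0.02 for all genes. In 38 members (36.2%) every bryostatin library lay above every DMSO library, against 12.9% of all genes, and in 4 members (3.81%) every one lay below, against 10.7%, these being NDUFS7, COX15, SDHB and ATP5S. The other 63 members overlapped. The highest of the 6 values was in a bryostatin library for 76 members (72.4%), against 47.1% of all genes. On the log2(FPKM + 1) scale, the 95% interval stayed within 2-fold either way for 97 of the 105 members (92.4%), against 93% of all genes. The count at an unadjusted p under 0.05 depended on single libraries. It was 11, all higher, without bryostatin replicate 1, where 5.06% of all genes were higher and 3.19% lower. It was 20 without bryostatin replicate 2, of which 17 were higher, against 9.66% of all genes higher and 7.43% lower. Without DMSO replicate 1 it was 16, all higher, against 5.79% of all genes higher and 2.96% lower, whereas the number of members above 0 was between 81 and 87 whichever library was left out.

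**Figure D1:**
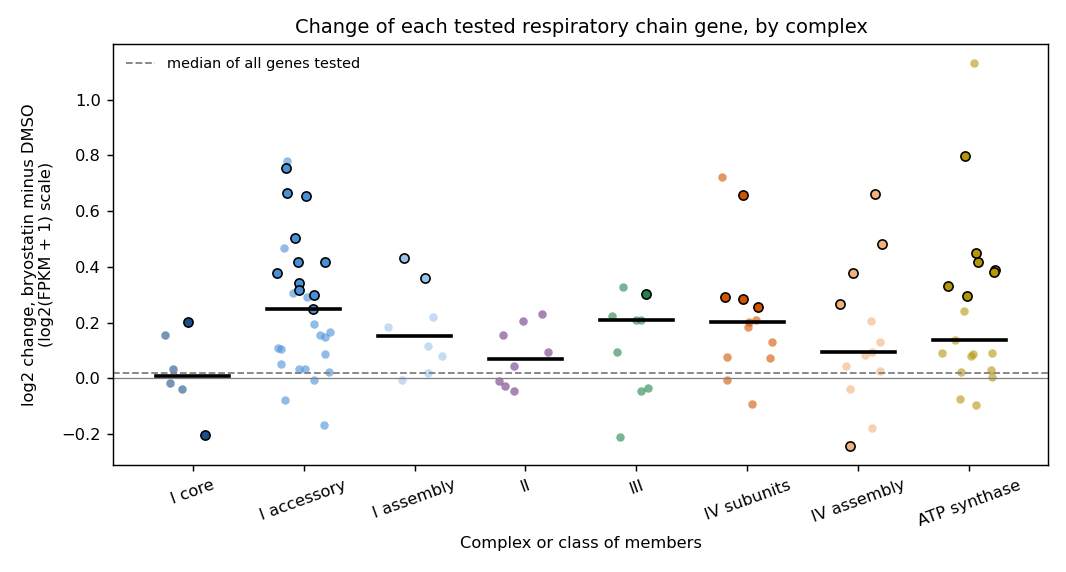
Log2 difference, bryostatin minus DMSO, of each of the 105 tested members on the log2(FPKM + 1) scale, in columns by complex. Outlined points have an unadjusted p under 0.05, black bars are the medians of the classes and the dashed line is the median of all genes tested; the accessory subunits of complex I have the highest median, 0.25, and the core subunits of complex I the lowest, 0.0077.

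The core and the accessory subunits of complex I had different medians, and also different lengths, with a median of 4790 bases for tested core members and 1889 for accessory ones. The difference between these classes was not tested. The 7 core members make up the NADH-oxidising and quinone-reducing arm, and the 6 that could be tested had a median log2 difference of 0.0077, with 3 above and 3 below 0. NDUFV1, the flavoprotein that binds NADH, had 79.0, 72.1 and 68.1 FPKM with bryostatin, against 72.2, 78.5 and 63.8 FPKM with DMSO. NDUFS1, the largest iron-sulfur subunit, had 17.4, 16.0 and 16.1 FPKM with bryostatin, against 16.2, 16.0 and 17.9 FPKM with DMSO. Both overlapped fully, with log2 differences of 0.03 and -0.02.

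NDUFS3 and NDUFS7 were the core members with the smallest p. NDUFS3, a subunit of the matrix arm, had 18.1, 17.3 and 17.1 FPKM with bryostatin, against 15.5, 14.05 and 15.7 FPKM with DMSO, without overlap (log2 difference 0.20, SE 0.08, adjusted p = 0.265 in limma). NDUFS7, which carries the iron-sulfur cluster next to the quinone, had 4.76, 5.03 and 4.20 FPKM with bryostatin, against 5.37, 5.68 and 5.46 FPKM with DMSO. All bryostatin libraries were thus below all DMSO libraries for NDUFS7, by 0.20 on the log2 scale (difference -0.20, SE 0.08, adjusted p = 0.282 in limma). Of its coding bases, 48.5% also lie in exons of other genes.

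The 29 tested accessory subunits of complex I, small proteins around the core, had a median log2 difference of 0.25, and 26 of them were above 0. Of the 29, 11 had an unadjusted p under 0.05, all higher with bryostatin (37.9%, against 10.5% of all genes), and 13 were higher without overlap (44.8%, against 12.9%). NDUFB1, a small membrane-arm subunit on chromosome 14 (92116122 to 92121917, hg38), had 25.8, 22.8 and 17.1 FPKM with bryostatin, against 11.6, 14.8 and 11.1 FPKM with DMSO. The lowest bryostatin library exceeded the highest DMSO library, and the log2 difference was 0.75 (SE 0.17, adjusted p = 0.216 in limma). NDUFB3, of the same arm, had 52.0, 50.3 and 43.2 FPKM with bryostatin, against 33.99, 38.0 and 29.96 FPKM with DMSO, again without overlap and with a log2 difference of 0.50.

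NDUFS6, an accessory subunit of the matrix arm that binds zinc, was higher in every bryostatin library than in any DMSO library, though unevenly. It had 80.5, 80.9 and 51.9 FPKM with bryostatin, against 44.5, 44.0 and 43.2 FPKM with DMSO. The DMSO libraries were nearly level, and bryostatin replicate 3 lay closer to them than to the other bryostatin libraries. NDUFB2, NDUFA6, NDUFB6, NDUFA12, NDUFB9, NDUFA8, NDUFS5 and NDUFA11 completed the 11, with log2 differences of 0.25 to 0.67. NDUFB10 and NDUFB7, more abundant than all of the 11 except NDUFS5, overlapped between treatments, at 112 ± 9.94 and 106 ± 3.28 FPKM with bryostatin, against 110 ± 3.98 and 102 ± 2.63 FPKM with DMSO (SD, n = 3 each). NDUFB5 had the lowest difference of the accessory subunits, at -0.17, with overlapping groups.

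Assembly factors of complex I were higher in 7 of 8 cases, with a median log2 difference of 0.15. NDUFAF8 had 55.2, 47.7 and 38.3 FPKM with bryostatin, against 33.997, 32.9 and 35.8 FPKM with DMSO. NDUFAF2, which joins a late assembly intermediate, had 45.9, 39.96 and 39.9 FPKM with bryostatin, against 33.4, 35.9 and 28.3 FPKM with DMSO. Neither overlapped, with log2 differences of 0.43 and 0.36 and the same adjusted p of 0.227 in limma. NDUFAF7, a methyltransferase, was at -0.0071 and overlapped.

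Of the 8 members of complex II, succinate dehydrogenase, 0 had an unadjusted p under 0.05, a count that says little with so few genes, since 10.5% of all genes were higher and 7.18% lower at that p. SDHB, its iron-sulfur subunit, had 67.8, 67.9 and 67.4 FPKM with bryostatin, against 68.7, 68.0 and 72.9 FPKM with DMSO. Its bryostatin values lay below all DMSO values, only just so for replicate 2 of each, with a log2 difference of -0.04. SDHA, the flavoprotein, overlapped at -0.03, as did the membrane anchors SDHC and SDHD at -0.01 and 0.10. The 4 assembly factors were all above 0, with SDHAF1 highest at 33.1, 34.3 and 29.3 FPKM with bryostatin, against 28.3, 24.5 and 29.4 FPKM with DMSO. The median of the 8 was 0.07, and without DMSO replicate 3 it was -0.0035, so its sign rested on that library.

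Of 9 complex III members 6 were above 0, and the others were the core proteins and the Rieske protein. UQCRC2, a core protein, had 39.1, 43.5 and 39.6 FPKM with bryostatin, against 49.2, 41.8 and 51.1 FPKM with DMSO, overlapping and with a log2 difference of -0.21. The core protein UQCRC1 and the Rieske iron-sulfur protein UQCRFS1 were at -0.05 and -0.03. UQCRQ, a small subunit near the quinone site, had 67.3, 63.1 and 55.5 FPKM with bryostatin, against 48.9, 53.8 and 46.9 FPKM with DMSO, without overlap (log2 difference 0.30, SE 0.10, adjusted p = 0.233 in limma).

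UQCRH, the acidic hinge protein that faces cytochrome c, had 183, 186 and 163 FPKM with bryostatin, against 154, 168 and 109 FPKM with DMSO. Its groups overlapped, because DMSO replicate 2 exceeded bryostatin replicate 3, and its level was lowest in DMSO replicate 3. UQCRHL is a retrocopy of UQCRH, so reads of both are uncertain. The median of the 9 complex III members was 0.21, but 0.04 without DMSO replicate 3 and 0.08 without bryostatin replicate 1.

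Complex IV subunits reached the highest typical levels, with a median of 80.8 FPKM over the 13 tested. COX8A, a small subunit, had 305, 231 and 193 FPKM with bryostatin, against 152, 198 and 113 FPKM with DMSO. The groups overlapped between bryostatin replicate 3 and DMSO replicate 2, and the log2 difference was 0.66 (SE 0.24, adjusted p = 0.241 in limma). COX6C had 69.3, 66.0 and 58.7 FPKM with bryostatin, against 50.3, 56.5 and 51.1 FPKM with DMSO, without overlap and with a log2 difference of 0.29. COX7A2 and COX5B were also higher without overlap and at an unadjusted p under 0.05, at 0.26 and 0.29. COX4I1, a regulatory subunit, had 82.9, 81.5 and 77.1 FPKM with bryostatin, against 88.0, 77.8 and 77.3 FPKM with DMSO, a log2 difference of -0.0073. COX7A2L, which helps complex III and complex IV associate, was lowest of the subunits at -0.09.

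Subunits that exist as tissue isoforms were expressed as the ubiquitous form. COX4I1 averaged 80.8 FPKM over the 6 libraries and COX4I2, known from lung, 0.023 FPKM. COX7A2 averaged 179 FPKM, and COX7A1, known from heart and skeletal muscle, 0.179 FPKM. COX6A2, a muscle form, and COX7B2 and COX8C, known from testis, were listed at 0 in every library, where 3 reads in a library would have given 0.227 to 0.286 FPKM for COX6A2. NDUFA4, now counted as a complex IV subunit, averaged 33.7 FPKM and its relative NDUFA4L2, known to rise under low oxygen, 1.43 FPKM. None of these rarely expressed forms was higher in all libraries of one treatment.

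Among the assembly factors of complex IV, COA6 had the smallest p of all members. COA6 helps deliver copper to the subunit that accepts electrons from cytochrome c, and lies on chromosome 1 (234373456 to 234384049, hg38). It had 20.8, 19.4 and 17.7 FPKM with bryostatin, against 12.2, 12.3 and 11.0 FPKM with DMSO. The gap between the groups was wider than the range within either, with a log2 difference of 0.66 (SE 0.09, 95% interval 0.44 to 0.88, unadjusted p = 0.000167, adjusted p = 0.216 in limma). Without DMSO replicate 3, COA6 was the member that passed, at an adjusted p of 0.0438 and a log2 difference of 0.61, in a fit that called 2.41% of all genes. Exons of other genes cover 21.6% of its coding bases.

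COX14, which steadies newly made MT-CO1, had 29.1, 30.1 and 24.6 FPKM with bryostatin, against 22.2, 23.6 and 18.0 FPKM with DMSO, without overlap. COX17, a copper chaperone, had 34.7, 23.2 and 24.5 FPKM with bryostatin, against 17.6, 23.8 and 16.6 FPKM with DMSO. Its groups overlapped, and bryostatin replicate 1 was by far the highest library, with a log2 difference of 0.48. COX15, which makes heme a, was the member with the lowest difference. It had 9.97, 12.1 and 11.9 FPKM with bryostatin, against 14.1, 13.4 and 13.0 FPKM with DMSO, all bryostatin libraries being below all DMSO libraries (log2 difference -0.24, SE 0.10, adjusted p = 0.263 in limma). Exons of other genes cover 78.7% of its coding bases. COX10, which makes heme o in the step before, was at -0.04 with overlapping groups.

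ATP synthase members ranged from -0.10 to 1.13 on the log2 scale. ATP5F1B, given above, had a log2 difference of 0.02 (95% interval -0.22 to 0.26), and ATP5F1A, the alpha subunit of the catalytic head, had 73.9, 78.2 and 68.6 FPKM with bryostatin, against 80.7, 71.7 and 83.7 FPKM with DMSO, a difference of -0.10. ATP5IF1, the inhibitor that stops the enzyme from running backwards, lies on chromosome 1 (28236109 to 28246906, hg38) and had 84.9, 83.1 and 53.8 FPKM with bryostatin, against 40.1, 45.7 and 38.2 FPKM with DMSO. It did not overlap, although bryostatin replicate 3 lay nearer to the DMSO libraries than to the other bryostatin libraries. Its log2 difference was 0.80 (SE 0.18, adjusted p = 0.216 in limma).

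ATP5MC1, ATP5MC2 and ATP5MC3 encode the same mature c subunit of the rotor ring. ATP5MC3 had 75.5, 67.9 and 62.3 FPKM with bryostatin, against 53.2, 55.2 and 47.7 FPKM with DMSO. ATP5MC1 had 51.5, 43.6 and 43.4 FPKM with bryostatin, against 33.9, 36.8 and 41.5 FPKM with DMSO, and ATP5MC2 had 46.9, 44.3 and 47.6 FPKM, against 48.3, 44.5 and 45.4 FPKM. The groups were apart for ATP5MC3 and ATP5MC1, with log2 differences of 0.39 and 0.30, and overlapped for ATP5MC2, at 0.01. The membrane subunits ATP5MF and ATP5MG differed by 0.45 and 0.42 without overlap, whereas ATP5MPL, of the same part of the enzyme, overlapped at 0.08. ATP5F1E, the epsilon subunit of the soluble part, had 54.8, 51.2 and 43.6 FPKM with bryostatin, against 39.1, 43.4 and 32.1 FPKM with DMSO, just without overlap and with a log2 difference of 0.38. Over the class, 17 of 19 tested members were above 0 (89.5%, against 53.9% of all genes) and 7 were higher at an unadjusted p under 0.05 (36.8%, against 10.5% of all genes).

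**Figure D2:**
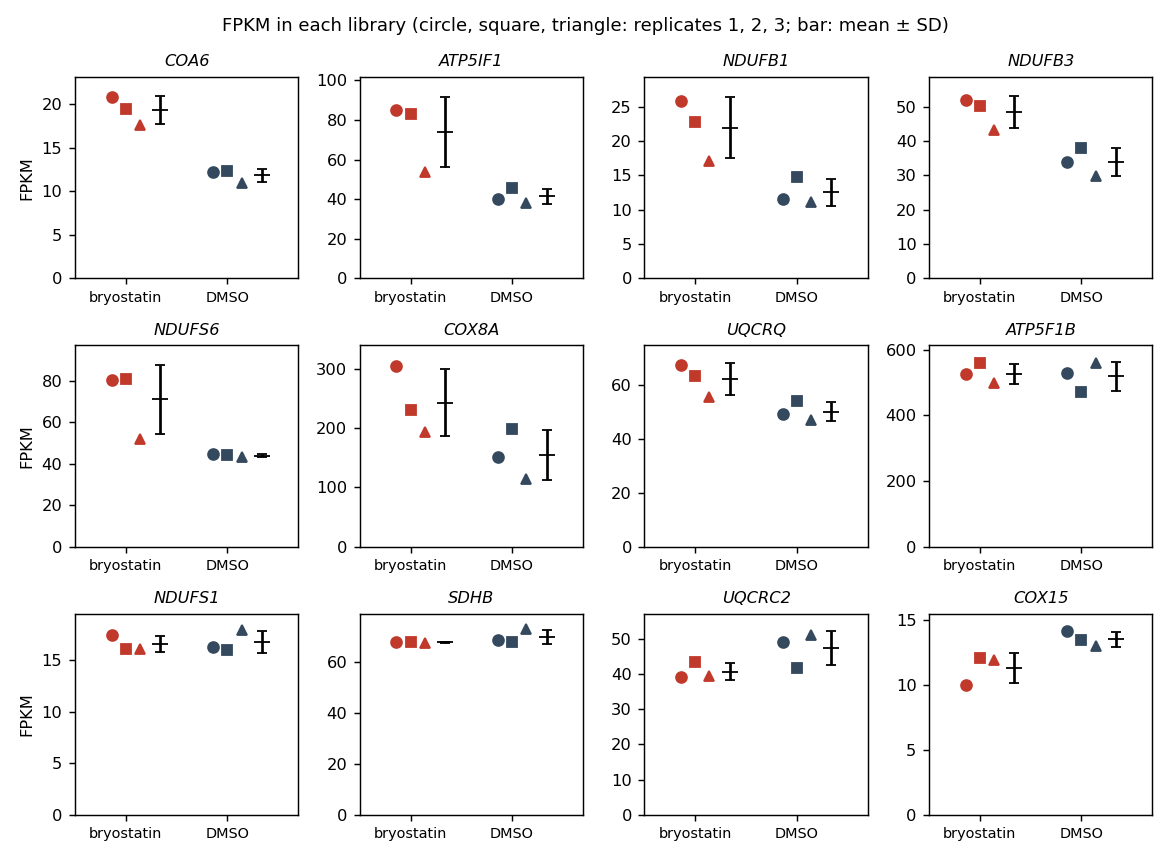
FPKM of 12 members in each library, bryostatin left and DMSO right, each axis starting at 0; bars beside the points are the mean ± SD of 3 libraries. COA6, ATP5IF1, NDUFB1, NDUFB3, NDUFS6 and UQCRQ do not overlap between treatments, ATP5F1B, NDUFS1, COX8A and UQCRC2 do, and COX15 and SDHB are lower in every bryostatin library.

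Some of the highest differences were smaller without DMSO replicate 3. ATP5ME, the e subunit of ATP synthase, had 79.7, 62.1 and 28.9 FPKM with bryostatin, against 25.9, 40.4 and 12.0 FPKM with DMSO. Its log2 difference of 1.13 was the highest of any member, yet its groups overlapped. NDUFA1 had 117, 99.2 and 87.1 FPKM with bryostatin, against 74.7, 86.2 and 30.3 FPKM with DMSO, and COX6A1 had 71.5, 63.9 and 55.8 FPKM, against 46.8, 55.4 and 21.0 FPKM. For NDUFA1 and COX6A1 the groups did not overlap, but the log2 differences of 0.78 and 0.72 became 0.32 and 0.31 without DMSO replicate 3, and that of ATP5ME 0.68.

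Against the mean of the other DMSO libraries, DMSO replicate 3 was more than 0.5 lower on the log2 scale for 8 members (7.62%). The share of all genes was 6.17%. Of the 8, 6 were shorter than 2000 bases, where 35.2% of all tested members had up to 2000 bases. Bryostatin replicate 3 was more than 0.5 below the other bryostatin libraries for 4 members (3.81%), against 2.02% of all genes. DMSO replicate 3 held the lowest of the 6 values for 51 members (48.6%), against 17.8% of all genes. Bryostatin replicate 1 held the highest for 49 members (46.7%), against 26.3%. Relative to the mean of the 6 libraries, the median member stood at 0.14, 0.10 and -0.01 in bryostatin libraries 1 to 3 and at -0.06, -0.05 and -0.12 in DMSO libraries 1 to 3, on the log2 scale. Bryostatin replicate 3 thus sat nearest to the DMSO libraries, and all 3 bryostatin medians were above all 3 DMSO medians.

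**Figure D3:**
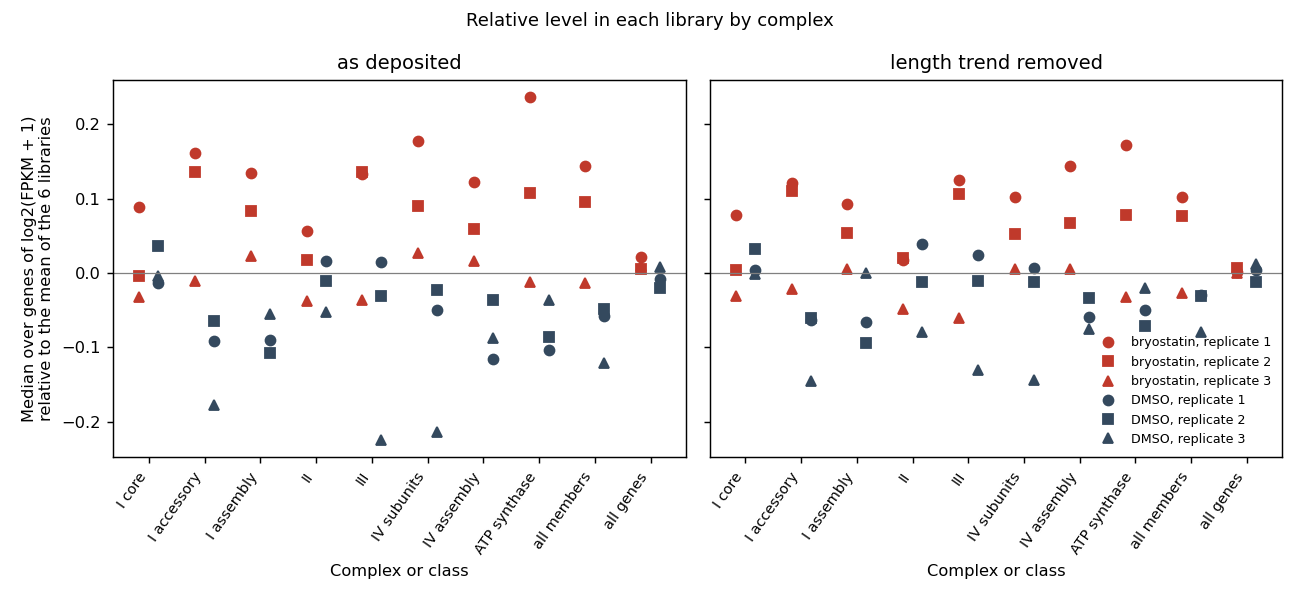
Median over the tested genes of each class of log2(FPKM + 1) relative to the mean of the 6 libraries, bryostatin in red and left, DMSO in dark blue and right, as deposited and after a trend on gene length was removed from each library. All members together, the accessory subunits and assembly factors of complex I and the assembly factors of complex IV are separated by treatment in both panels, complex IV subunits and ATP synthase only as deposited, and complex I core, complex II and complex III in neither.

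Gene length ran with these differences. The length column counts the bases of all annotated exons of a gene, and its median was 2492 bases for tested members, against 4455 for all genes tested. Members up to 2000 bases made up 35.2% of those tested, against 19.5% of all genes. Over the 105 members, the Spearman correlation between length and the log2 difference was -0.59, and over all 11071 genes it was -0.23, both across genes that share the same 6 libraries. Within classes it was -0.71 for 13 complex IV subunits, -0.67 for 13 complex IV assembly factors, -0.47 for 19 ATP synthase members and -0.31 for 29 complex I accessory subunits.

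The class over 1000 and up to 2000 bases, which holds NDUFB3, NDUFS6, COA6 and UQCRQ, had a median log2 difference of 0.30 over its 28 members, against 0.12 for all genes of that length, and all 28 were above 0. Up to 1000 bases, where COX8A and NDUFS5 belong, the medians were 0.25 for 9 members and 0.06 for all genes. Above 2000 and up to 3000 bases they were 0.16 for 23 members and 0.08 for all genes, up to 4000 bases 0.08 for 15 members and 0.06, and up to 6000 bases 0.08 for 13 members and 0.02. Over 6000 bases, as for NDUFS1, SDHA and ATP5F1A, the medians were -0.0046 for 17 members and -0.04 for all genes. In each length class the median of members lay above that of all genes. ATP5MC3, of 6780 bases, was the 1 member over 6000 bases that was higher at an unadjusted p under 0.05.

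**Figure D4:**
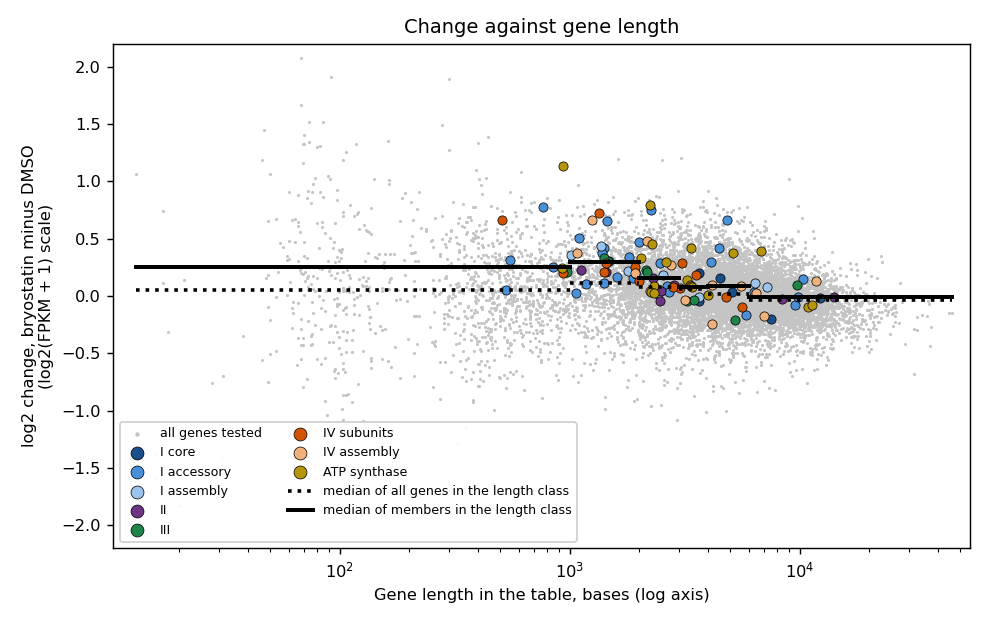
Log2 difference, bryostatin minus DMSO, against gene length on a log axis, for all 11071 genes tested in grey and the 105 members in the colours of their classes. Solid bars are the medians of members in each length class and dotted bars those of all genes; members have a median of 0.30 between 1000 and 2000 bases and of -0.0046 over 6000 bases.

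The length relation was also taken in single libraries. The Spearman correlation between length and a member's level relative to the 6 libraries was -0.49, -0.49 and -0.24 in bryostatin libraries 1 to 3 and 0.43, 0.08 and 0.44 in DMSO libraries 1 to 3. Over all genes tested it was -0.19, -0.17 and -0.09 with bryostatin and 0.14, 0.03 and 0.21 with DMSO. Levels relative to the mean of the 6 libraries cancel out for each gene, so opposite signs between libraries are built into this measure. After a smooth trend on length was taken out of each library, the correlation of length with the log2 difference was -0.0045 over all genes and -0.39 over members. The median log2 difference of members was then 0.10, with 78 of 105 above 0. At an unadjusted p under 0.05, 19 members were then higher and 1 lower, against 8.17% and 7.78% of all genes, and 20 of the earlier 32 stayed under 0.05. COA6, NDUFB1, NDUFB3 and ATP5IF1 kept log2 differences of 0.56, 0.66, 0.40 and 0.71, COX15 one of -0.28, while UQCRQ and NDUFS5, at 0.20 and 0.24, no longer had an unadjusted p under 0.05. The cause of the length trend was not tested.

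Levels under 1 FPKM were more frequent among members with more than 50% of their coding bases in exons of other genes. Still, 5 of the 13 members under 1 FPKM shared no coding bases. The 13 include 2 read-through genes, which share exons with the genes they join. How reads on bases shared by several genes were counted is not given in the sources used here. Among 81 members whose coding bases lie in no exon of another gene, the median level was 29.9 FPKM and 5 were under 1 FPKM. Among 19 members with up to 50% of their coding bases in such exons it was 20.4 FPKM, and 1 was under 1 FPKM. Among 18 members with more than 50% of their coding bases in such exons it was 2.75 FPKM, and 7 of the 18 were under 1 FPKM. NDUFV2, the iron-sulfur partner of NDUFV1 in the core of complex I, had 0.525, 0.258 and 0.598 FPKM with bryostatin, against 0.524, 0.606 and 0.258 FPKM with DMSO, and 84.7% of its coding bases are shared. This lay far below the 17.7 FPKM median of the tested core members.

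COX20, an assembly factor for MT-CO2, averaged 0.297 FPKM with 80% of its coding bases in exons of other genes, among them HNRNPU on the opposite strand, while its processed pseudogene COX20P1 averaged 8.56 FPKM. NDUFV2P1, a pseudogene of NDUFV2, likewise stood at 1.75 FPKM, above its parent. COX16 and NDUFA7 had 78.7% and 78.3% of coding bases shared and averaged 0.174 and 0.384 FPKM. High overlap did not always go with a low value, since UQCR11, with 100% shared, averaged 18.7 FPKM and COX8A, with 55.1%, averaged 199 FPKM. The remaining members under 1 FPKM were ATP5MGL, the read-through genes ATP5MF-PTCD1 and NDUFC2-KCTD14, and the tissue forms COX4I2, COX6A2, COX6B2, COX7A1, COX7B2 and COX8C. In total 168 pseudogene rows carry the names of 50 members, and 10 of them reached 1 FPKM, so reads of members with such copies are uncertain.

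**Figure D5:**
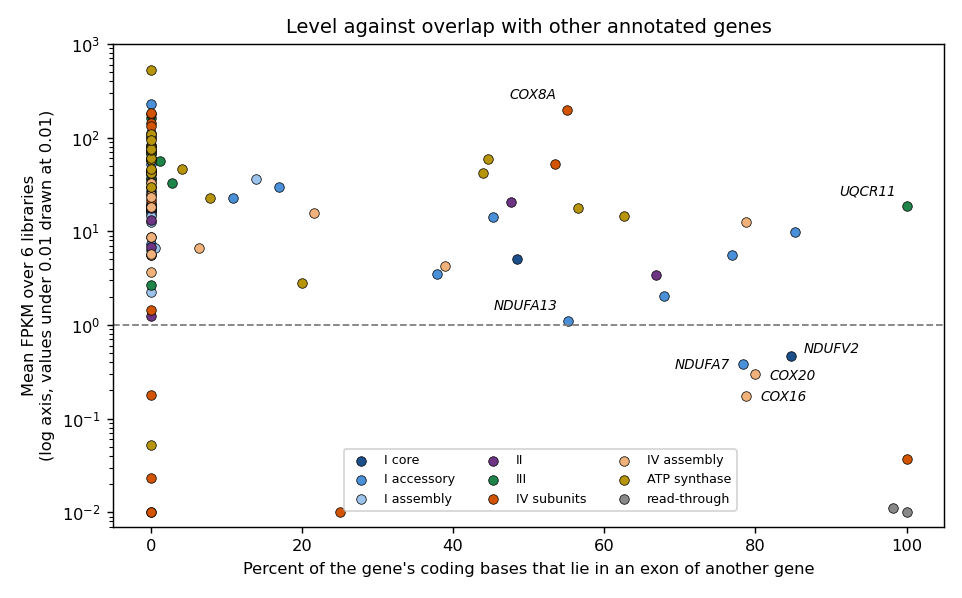
Mean FPKM over the 6 libraries, on a log axis, of all 118 members against the percent of their coding bases that lie in an exon of another gene; values under 0.01 are drawn at 0.01 and the dashed line is the 1 FPKM needed for testing. NDUFV2, NDUFA7, COX20 and COX16 lie below the line at 78.3% to 84.7%, while COX8A and UQCR11 lie well above it.

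Other genes of the pathway were taken as whole lists. Of the 13 subunits encoded in mitochondrial DNA, 10 were above 0, with a median log2 difference of 0.14, and 1 was higher at an unadjusted p under 0.05, against the 10.5% of all genes. That was MT-ATP8, a small ATP synthase subunit, with 281, 300 and 188 FPKM with bryostatin, against 170, 196 and 160 FPKM with DMSO, overlapping. MT-CO1, the catalytic subunit of complex IV, had 4374, 5356 and 4828 FPKM with bryostatin, against 4556, 4915 and 5634 FPKM with DMSO, overlapping at -0.05. These RNAs were measured after selection for poly(A), which mitochondrial messengers carry in a short form.

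Of 32 tested nuclear subunits and assembly factors whose symbols the rule does not cover, 23 were above 0, against 53.9% of all genes, with a median of 0.11. At an unadjusted p under 0.05, 10 were higher and 1 was lower, against 10.5% and 7.18% of all genes. Cytochrome c itself, CYCS, had 76.8, 68.8 and 59.1 FPKM with bryostatin, against 49.3, 50.1 and 53.5 FPKM with DMSO, without overlap and with a log2 difference of 0.41. UQCC2, an assembly factor of complex III, and FOXRED1, one of complex I, differed by 0.49 and 0.26. Of 14 tested transcriptional regulators of respiratory genes, 11 were above 0 and 1 was higher at that p, TFB2M, a mitochondrial transcription factor, at 0.44. NRF1 differed by 0.24 and TFAM, which packages mitochondrial DNA, by 0.24, both with overlapping groups. The 3 regulators below 0 lay at -0.24 to -0.16, also with overlapping groups. They included MYC, the most abundant of the list, at -0.17 and GABPA at -0.16.

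Some enzymes of the tricarboxylic acid cycle make NADH or succinate that the chain uses. The list of cycle enzymes, which also held PDHA1, PDHB and DLAT of pyruvate dehydrogenase, was below 0 in 11 of 17 tested cases. The other 6 were above 0, against 53.9% of all genes, and the median was -0.08. At an unadjusted p under 0.05, 1 was lower, against 7.18% of all genes. This was IDH2, a mitochondrial isocitrate dehydrogenase, with 23.9, 24.9 and 24.5 FPKM with bryostatin, against 35.9, 30.8 and 34.5 FPKM with DMSO. Its groups were well apart, with a log2 difference of -0.45 (adjusted p = 0.216 in limma). The difference between this list and the members was not tested.

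Proliferation genes also stood higher with bryostatin, by a median of 0.57 on the log2 scale, with 20 of 20 above 0 and 12 higher at an unadjusted p under 0.05, against 53.9% and 10.5% of all genes. Their median relative level was 0.46, 0.19 and 0.23 in bryostatin libraries 1 to 3 and -0.62, -0.41 and 0.24 in DMSO libraries 1 to 3. In this median the treatments overlapped, as DMSO replicate 3 lay above bryostatin replicates 2 and 3. AURKB, a mitotic kinase, had 53.0, 44.3 and 47.5 FPKM with bryostatin, against 20.4, 26.5 and 37.6 FPKM with DMSO, without overlap. TOP2A had 78.8, 76.0 and 73.5 FPKM with bryostatin, against 48.9, 46.2 and 85.1 FPKM with DMSO, overlapping. DMSO replicate 3 was thus the highest DMSO library for this list and the lowest for the respiratory chain members. The part of proliferation in the members' differences was not tested.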

How the data were processed

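Polyadenylated RNA of 6 Raji libraries, 3 with bryostatin and 3 with DMSO, was analysed from the deposited FPKM values of the authors, which scale reads by gene length and library size. Per the submitters' processing notes, the build was hg38 and the tools included featureCounts 1.5.0-p3, HISAT2 2.0.5, DESeq2 1.20.0 and CASAVA; the step each served, and any setting for strand or overlapping genes, is not given in the sources used here. Coordinates and lengths of all 58735 genes equal those of GENCODE release 29. FPKM times length gave whole reads within 0.001 reads per 1000 reads for all values, hence the depths of 19405370 to 24468270 reads.

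The 11071 genes averaging 1 FPKM or more were tested by limma 3.58.1 (R 4.3.3) on log2(FPKM + 1), with an intensity trend and Benjamini-Hochberg adjustment. The smallest two-sided p of an exact permutation test with 3 libraries a group is 0.1. Length and GC trends were removed by loess (span 0.5). Alternatives were pseudocount, filter, TPM, median-of-ratios and quantile scaling, voom weights, a replicate block, length, each library left out and, chosen after seeing the data, GC content and genes without exon overlap. In simulations of this comparison over 11071 genes, 92% of genes changed 2-fold and 99.7% of those changed 4-fold were recovered. Over 3 simulations 57 unchanged genes were called. The simulated reads had the same relative spread for every gene, no length trend and no deviating library. These shares therefore do not carry over to the real libraries. There 59 of the 11071 genes differed by at least 1 on the log2 scale, and 0 passed an adjusted p of 0.05 in limma.

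The members, lists and tests were chosen with earlier results of these data known. Named in each class were the members with the smallest p, the highest level and the highest and lowest difference, the tissue isoforms, the members under 1 FPKM, and up to 5 genes of each list; NDUFS6, NDUFB2 and other members at an unadjusted p under 0.05, those lowest in DMSO replicate 3, and the core subunits were named after their values were seen. Some genes that the naming rule takes are not reported here.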

Additional observations from a re-analysis of the deposited data

How the results depend on the processing

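The medians of all members, of complex I subunits and of ATP synthase kept their sign in each alternative run, but that of ATP synthase (0.14) became 0.060 with quantile scaling and 0.068 with the length trend removed, and that of all members (0.16) 0.095 and 0.10. No member passed an adjusted p of 0.05 except without DMSO replicate 3 (0 to 1 with each library left out). The 32 members at an unadjusted p under 0.05 became 20 with quantile scaling, 17 higher and 3 lower, against 8.07% and 9.19% of all genes. With the length trend removed 19 were higher and 1 lower, against 8.17% and 7.78%. Among genes without exon overlap (48 members tested) 12 were higher and 0 lower, against 9.78% and 7.06%. Leaving out each library gave 11 (without bryostatin replicate 1) to 35 (without bryostatin replicate 3). The shares of all genes were 5.06% and 3.19% in the former, 8.73% and 4.69% in the latter. The replicate block gave 27, all higher, against 7.08% and 3.68%. With the length trend also removed it gave 16, without a share of all genes to set beside it. Deviations of same-numbered libraries correlated at -0.29, -0.32 and -0.11, and those of other pairs at -0.06 to 0.32. The values thus showed no pairing by replicate number, but cannot establish how the libraries were made. The Spearman correlation of difference and length, -0.59, was -0.49 without a filter, -0.49 with quantile scaling, -0.39 with the length trend removed, also with the block, and -0.59 to -0.52 with each library left out. The complex IV subunit median of 0.20 became 0.092 with quantile scaling and 0.11 with the length trend removed, also with the block. For complex II (0.07) it was 0.13 with a filter at 5 FPKM, 0.16 without exon overlap and -0.0035 to 0.15 with each library left out. For complex III (0.21) leaving out each library gave 0.043 to 0.26, and for complex I assembly factors (0.15) 0.095 to 0.22, with 0.22 without exon overlap. Complex IV assembly factors (0.10) were at 0.029 without exon overlap. The causes were not tested. Of 68 single genes, 12 changed sign in some alternative. Depth limits the 13 members under 1 FPKM, which were not tested.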
